A study of Mus musculus with 2 samples.

Results

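The genes described here are 10 mouse LIM genes: the LIM homeobox factors Lmx1b, Lhx9, Lhx2, Lhx1 and Isl1, the LIM-only factors Lmo1, Lmo2 and Lmo4, and the LIM-binding cofactors Ldb1 and Ldb2. All probe sets with exactly 1 annotated gene symbol from this list were taken, and each was read separately. This gave 18 probe sets, of 45037 on the array that are not controls. Whole limb buds of Bhlha9 knockout and wild-type embryos gave RNA for 1 array each, of the Affymetrix Mouse Genome 430 2.0 design. Both groups were of the C57BL/6 line and at E10.5, and the comparison asks which limb bud transcripts differ where Bhlha9, a basic helix-loop-helix transcription factor, is missing. The part of Bhlha9 that was deleted, the number of embryos behind each RNA and the share of forelimb and hindlimb buds were not stated in the labels.

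LIM homeobox proteins are transcription factors that carry a pair of zinc-binding LIM domains beside a DNA-binding homeodomain. LIM-only proteins have the LIM domains without the homeodomain. Ldb proteins bind the LIM domains and hold several LIM proteins together in one complex on DNA, and LIM-only proteins can compete with LIM homeodomain proteins for Ldb. In the limb bud, Lmx1b gives the dorsal mesenchyme its identity under the control of Wnt7a from the dorsal ectoderm, Lhx2 and Lhx9 act in the distal mesenchyme between the FGF signals of the ectodermal ridge and posterior Shh, and Isl1 is needed to start the hindlimb bud. Outside the limb, Isl1 marks motor and sensory neurons and heart progenitors, Lhx1 marks intermediate mesoderm and spinal interneurons, and Lmo2 with Ldb1 acts in blood and endothelial cells.

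The values are MAS 5.0 signals, which are intensities on a linear scale, set so that the 2% trimmed mean was 500.0 on both arrays. A signal was called detected above the 40th percentile of its array, 41.8 on the knockout and 41.2 on the wild-type array. Ratios are log2 values, knockout minus wild type, and where 1 array was under its floor the ratio is a bound taken at that floor. With 1 array per genotype there is no replicate, no test of genotype, and no way to tell genotype apart from embryo, dissection or array, so differences are between these 2 arrays. Measurement error alone was estimated from how far the brightest pair of probe sets disagreed in 5440 genes. Its SD was 0.396 for a difference between 2 log2 ratios and 0.28 for a single ratio. The spread of ratios was wider among dim probe sets, with a robust SD of 0.587 in the fifth with the lowest signal and 0.341 in the fifth with the highest. The targeted gene did not check the labels, because its single probe set read 1.70 on the knockout and 7.87 on the wild-type array, both under the floor. Genes of the labelled tissue were detected on both arrays, 12 of 12 of limb mesenchyme and 12 of 12 of limb ectoderm on each. The part of other epithelia in the ectoderm readings was not tested. The knockout array also held transcripts of embryonic liver, with 9 of 11 liver genes detected there alone and all 11 past 2-fold upwards.

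Of the 18 probe sets, 15 were detected on both arrays, 2 on 1 array and 1 on neither. Lmo1, Lmx1b and Lhx9 were at least 2-fold lower on the knockout array, Isl1, by its brighter probe set, and 1 dim Lhx1 probe set were at least 2-fold higher, Ldb1 and Lhx2 were lower by less than 2-fold, and Lmo2, Lmo4 and Ldb2 were within the measurement error. Counted by probe set, 6 of 17 with a ratio were at least 2-fold lower, against 4.52% of all probe sets with a ratio, and 4 of those 6 belong to Lhx9. A further 2 of 17 were at least 2-fold higher, against 3.23% of all probe sets. At 1.5-fold, 8 of 17 were lower and 3 higher, against 15.6% and 10.3% of all probe sets. Counted by the brightest probe set of each gene, 3 of 10 genes were lower and 2 of 10 higher, against 2.66% and 4.16% of 13062 genes. The 2 higher genes are Isl1 and Lhx1, and the other Lhx1 probe set was not higher. Over the 15 LIM probe sets detected on both arrays the median log2 ratio was -0.64, against -0.06 over the 24843 such probe sets in all. Over the 17 LIM probe sets with a ratio it was -0.13, which is the bound of a dim Lhx1 probe set and not a measured ratio, against -0.05 over all 29142. The genes were chosen with these results known, so the counts describe them and are no test.

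**Figure D1:**
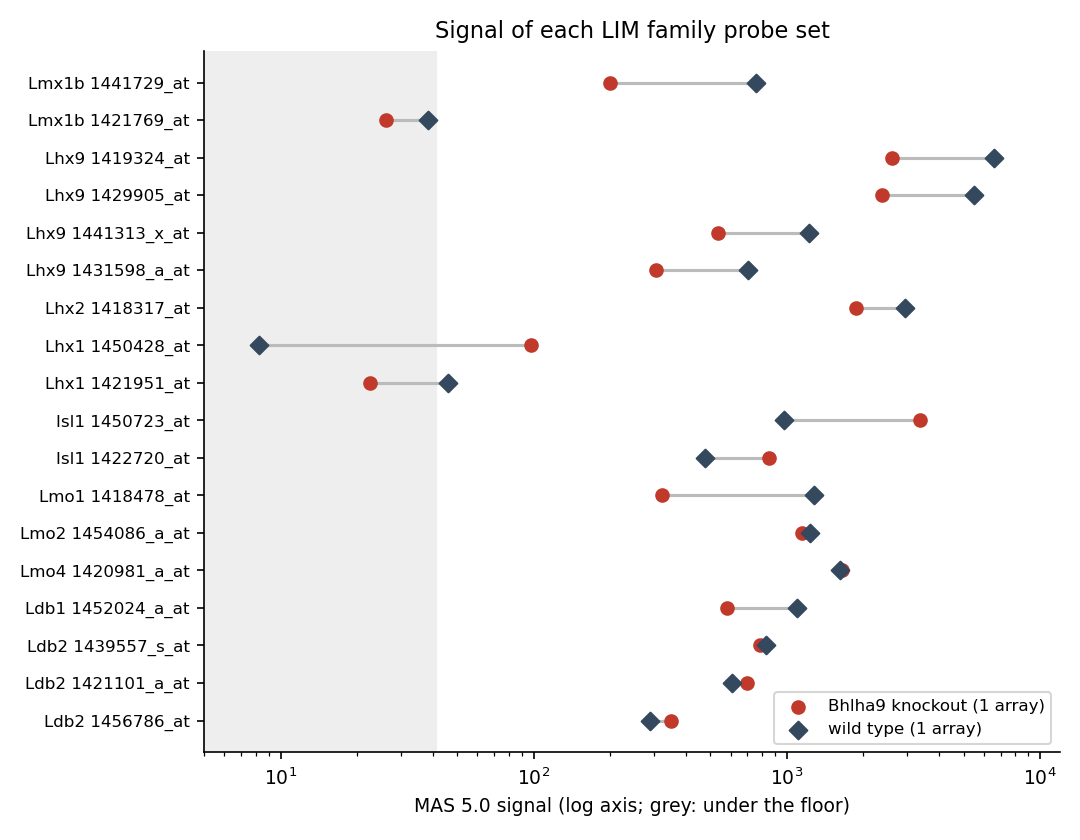
MAS 5.0 signal on a log axis for each of the 18 LIM probe sets, with the Bhlha9 knockout array as circles and the wild-type array as diamonds (1 array each); the grey band lies under the floor of 41.2. The widest gaps among probe sets above the floor are those of Lmx1b, Lmo1 and the brighter Isl1 probe set, and the Lmo2 and Lmo4 symbols nearly coincide.

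Promoters are shown here for the LIM genes with the largest ratios among those detected on both arrays. Of these, Lmo1, Lmx1b and Lhx9 were lower and Isl1 was higher on the knockout array. Shared control of these genes was not tested. Each line gives the 250 bases before an annotated transcription start, 5′ to 3′ on the coding strand, from RefSeq on GRCm38.p6. The Lhx9 window lies inside the annotated gene, whose 5′ end is at 138848839. The Lmx1b window overlaps its gene, whose 5′ end is at 33641208. Which start the limb bud uses was not tested. Capitals mark TAATTA, the core that many homeodomain proteins bind, and CANNTG, the E-box that basic helix-loop-helix proteins bind.
Lmo1, minus strand, chr7:109175208-109175457: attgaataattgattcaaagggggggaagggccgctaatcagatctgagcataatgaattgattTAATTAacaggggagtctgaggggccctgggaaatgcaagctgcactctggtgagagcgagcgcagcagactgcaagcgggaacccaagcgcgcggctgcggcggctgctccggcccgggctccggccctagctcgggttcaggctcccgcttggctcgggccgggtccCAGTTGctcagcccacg
Lmx1b, minus strand, chr2:33641099-33641348: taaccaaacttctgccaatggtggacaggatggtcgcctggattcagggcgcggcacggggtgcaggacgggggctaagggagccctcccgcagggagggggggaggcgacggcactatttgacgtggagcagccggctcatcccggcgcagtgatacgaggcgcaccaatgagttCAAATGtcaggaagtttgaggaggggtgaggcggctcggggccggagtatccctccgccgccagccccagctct
Lhx9, minus strand, chr1:138842445-138842694: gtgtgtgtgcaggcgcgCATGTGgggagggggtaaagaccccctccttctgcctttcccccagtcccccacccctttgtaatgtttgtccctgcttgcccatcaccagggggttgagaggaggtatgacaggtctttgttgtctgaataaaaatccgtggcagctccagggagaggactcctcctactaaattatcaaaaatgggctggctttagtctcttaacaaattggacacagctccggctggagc
Isl1, minus strand, chr13:116309689-116309938: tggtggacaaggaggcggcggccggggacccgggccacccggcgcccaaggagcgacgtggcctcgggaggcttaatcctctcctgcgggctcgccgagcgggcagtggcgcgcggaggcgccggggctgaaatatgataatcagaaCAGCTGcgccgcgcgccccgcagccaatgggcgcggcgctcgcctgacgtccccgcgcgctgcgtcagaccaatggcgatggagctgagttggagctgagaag

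RefSeq windows were found for 8 of the 10 genes, 14 windows in all, and each was searched on both strands. TAATTA was present in 2 of the 14 windows, both of Lmo1, which overlap each other, and in 4.84% of 32851 windows of all genes. In the Lmo1 sequence above it starts at position -186 from the transcription start. An E-box was present in 8 of the 14 windows and in 66.2% of all windows, and each of the 4 sequences above has 1. The E-boxes start at position -17 in Lmo1, -74 in Lmx1b, -233 in Lhx9 and -103 in Isl1, and none of the marked motifs overlaps another. CCGGAA, the core bound by ETS factors such as the FGF-responsive Etv4 and Etv5, was in 0 of the 14 windows and in 12.0% of all windows. A match in letters is a description and does not show binding.

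Lmx1b, the dorsal mesenchyme determinant, had 2 probe sets. The probe set 1441729_at read 200.0 on the knockout and 758.5 on the wild-type array, a log2 ratio of -1.92, or 3.79-fold lower. Of the 29142 probe sets with a ratio, 59 had a lower one. The second Lmx1b probe set, 1421769_at, read 26.1 on the knockout and 38.1 on the wild-type array, under the floor on both, so the Lmx1b difference rests on 1 probe set. The signals that act on Lmx1b did not show one shared direction. Wnt7a, the dorsal ectoderm signal that induces Lmx1b, read 90.1 on the knockout and 50.8 on the wild-type array by its brightest probe set. This was a ratio of 0.83. Another Wnt7a probe set gave -0.43, close to the floor at 45.4 on the knockout and 61.0 on the wild-type array. The remaining Wnt7a probe set was under the floor on both arrays. En1, the ventral ectoderm factor that keeps Wnt7a dorsal, read 27.6 on the knockout and 21.7 on the wild-type array and was detected on neither. The BMP receptor gene Bmpr1a, which acts upstream of En1, had a ratio of 0.23, and the Wnt co-receptor gene Lrp6 had -0.32. Ectodermal genes as a list had a median of 0.84, with 6 of 12 past 2-fold upwards and 0 downwards, and a summed signal of 10748 on the knockout and 6616 on the wild-type array; their part in the Wnt7a reading was not tested. Of the dorsoventral signal genes, 0 of the 3 with a ratio passed 2-fold in either direction.

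Lhx9 had 4 probe sets and the closest agreement among them. The probe set 1419324_at read 2613 on the knockout and 6593 on the wild-type array, a log2 ratio of -1.34. A second, 1429905_at, read 2378 on the knockout and 5495 on the wild-type array, a ratio of -1.21. The dimmer 1441313_x_at, of a kind prone to cross-hybridisation, read 533.6 on the knockout and 1228 on the wild-type array, and 1431598_a_at read 305.9 on the knockout and 700.8 on the wild-type array, both with a ratio of -1.20. All 4 Lhx9 probe sets were therefore lower on the knockout array, and the lowest and highest ratio were 0.14 apart. Among 578 genes with 4 probe sets detected on both arrays, the median distance was 0.67, and 12 genes had a smaller one. Probe sets of 1 gene share the RNA sample, so this agreement bears on the measurement of Lhx9 and not on the difference between embryos.

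Lhx2, which overlaps with Lhx9 in function in the distal limb mesenchyme, had 1 probe set. It read 1882 on the knockout and 2923 on the wild-type array, a log2 ratio of -0.64, or 1.55-fold lower, and did not pass 2-fold. The Lhx2 ratio was 0.70 above that of the brightest Lhx9 probe set, beside an SD of 0.396 for measurement error in a difference. That value is 1 SD and not a limit that error stays under. The outgrowth signals that Lhx2, Lhx9, Lmx1b and Ldb1 are tied to were split. Grem1, the BMP antagonist that links Shh to the ridge, read 637.9 on the knockout and 1575 on the wild-type array, a ratio of -1.30. The mesenchymal Fgf10, also dim, read 89.7 on the knockout and 162.2 on the wild-type array, a ratio of -0.86. The ridge gene Fgf4 read 58.8 on the knockout and 86.9 on the wild-type array, a ratio of -0.56. That is within the robust SD of 0.587 in the fifth with the lowest signal. Shh itself read 1986 on the knockout and 693 on the wild-type array, a ratio of 1.52. The other Shh probe set was under the floor on both arrays. The dim Fgf9 read 118.0 on the knockout and 56.0 on the wild-type array, 2.10-fold higher. Fgf8, the main ridge FGF, stood at 0.15 and the Notch ligand Jag1 also at 0.15. Foxa2, found with Shh in floor plate and gut endoderm, read 198.6 on the knockout and 26.6 on the wild-type array, where it was not detected, and the part of such cells in the Shh reading was not tested. Of the 8 genes of this loop, 1 was at least 2-fold lower and 2 were at least 2-fold higher.

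**Figure D2:**
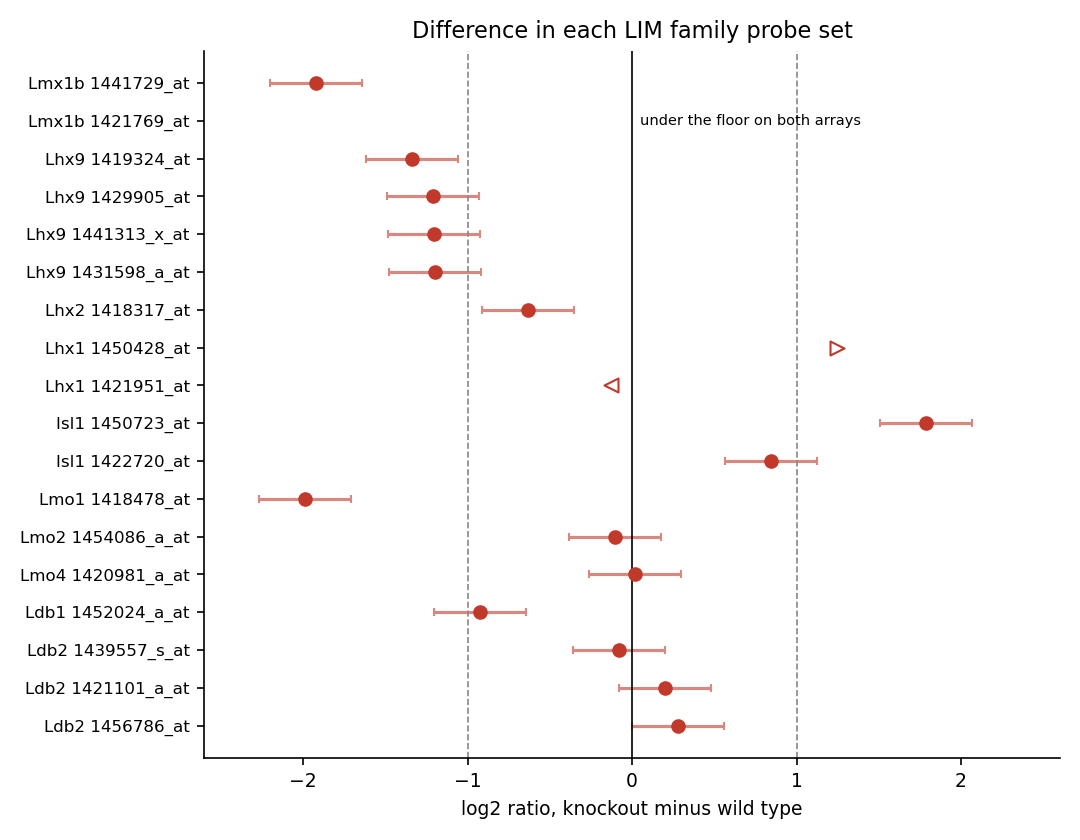
Log2 ratio, knockout minus wild type, of each LIM probe set; bars are ±1 SD of measurement error (0.28) from probe set pairs, open triangles are bounds with 1 array under the floor, and dashed lines mark 2-fold. The 4 Lhx9 points lie between -1.34 and -1.20, and the pair of Isl1 points is 0.94 apart.

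Other genes of limb mesenchyme were lower on the knockout array as well. Of the 12 mesenchyme genes, 12 had negative ratios, the median was -0.89, and 5 passed 2-fold downwards, namely Tbx15 (-1.50), Msx1 (-1.37), Shox2 (-1.31), Hoxd9 (-1.27) and Hoxa11 (-1.19). Prrx1, which early limb mesenchyme expresses throughout, was at -0.33. The summed signal of the list was 24544 on the knockout and 43916 on the wild-type array. In whole limb buds, fewer mesenchymal cells and less RNA of these genes per cell cannot be told apart. Transcripts of some other tissues were higher on the knockout array. The 11 liver genes had a summed signal of 34314 on the knockout and 379 on the wild-type array, with Afp, the fetal serum protein, at 19084 on the knockout and 17.7 on the wild-type array. The ectodermal list was higher on the knockout array too, as given above, and so were the neuronal lists given with Isl1. The endothelial list was lower, with a median of -0.34, and the erythroid list stood at 0.08. The part of these tissues in the lower mesenchyme and LIM signals was not tested. Set against the mesenchyme median, Lmo1 stood at -1.10 and Lmx1b at -1.03. Both were still past 2-fold lower, but by less than 0.28, the SD of measurement error in a ratio. The 4 Lhx9 probe sets stood between -0.44 and -0.31 on that scale, within 2-fold, Ldb1 at -0.03 and Lhx2 at 0.26. Lmo2 stood at 0.78, Lmo4 at 0.91 and the 3 Ldb2 probe sets at 0.81, 1.09 and 1.17. On that scale 2 LIM probe sets were past 2-fold lower and 5 past 2-fold higher. This comparison with the mesenchyme list was chosen after the data were seen.

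Isl1 had 2 probe sets, both higher on the knockout array but by different amounts. The probe set 1450723_at read 3355 on the knockout and 973 on the wild-type array, a log2 ratio of 1.79, or 3.45-fold higher. The probe set 1422720_at read 855 on the knockout and 475 on the wild-type array, a ratio of 0.85, or 1.80-fold higher. The distance of 0.94 between them was wider than in 91.9% of 3099 genes with a pair of probe sets detected on both arrays, where the median distance was 0.31. Both carry the same source accession in the platform annotation, and the sequences of the probes were not used here.

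Genes of the hindlimb field were lower on the knockout array, opposite to Isl1, and so were those of limb mesenchyme. The medians were -0.88 for the hindlimb field and -0.89 for limb mesenchyme, so this direction was not particular to the hindlimb list. Tbx4, the hindlimb T-box factor, read 1195 on the knockout and 2810 on the wild-type array, a ratio of -1.23, and its other probe set gave -1.59. Pitx1, which specifies hindlimb identity, gave -1.07 and -1.77 by its 2 probe sets. Hoxc10 was at -0.69 and Hand2, a posterior limb gene, at -0.37, so that 2 of the 4 genes with a ratio passed 2-fold downwards and 0 upwards.

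Many neuronal genes were higher on the knockout array, the direction of Isl1. In the motor neuron list 6 genes had a ratio, of which 4 were past 2-fold upwards and 0 downwards, namely the cytoskeletal genes Nefl (2.98), Nefm (2.70), Stmn2 (2.62) and Tubb3 (2.27), which neurons in general express. The defining motor neuron genes Mnx1, Chat and Slc18a3 were under the floor on both arrays. Slc5a7, at 42.6, and Prph, at 41.5, were detected on the wild-type array alone, close to its floor. Olig2, at 58.3, was detected on the knockout array alone. The summed signal of the 10 motor neuron genes on the array was 2074 on the knockout and 425 on the wild-type array. In the sensory neuron list 3 of 7 passed 2-fold upwards and 0 downwards, Neurod1 by at least 5.37-fold and Neurog2 by at least 5.20-fold. Pou4f1, a defining sensory factor, stood at 0.71. Of the 7 genes, 4 were detected on the knockout array alone, so the ratios of those 4 could only be positive. The summed signal of the sensory list was 1060 on the knockout and 320 on the wild-type array. Among 8 heart and pharynx genes 4 passed 2-fold upwards, among them Myl7 by at least 7.32-fold, and Tbx20 was lower at -2.40. The 4 include Foxa2, which is named above for floor plate and gut endoderm. Of the 8 genes, 3 were detected on the knockout array alone, Myl7 and Foxa2 among them. Nkx2-5, the defining cardiac factor, was under the floor on both arrays, and the summed signal of that list was 1307 on the knockout and 1028 on the wild-type array. The part of these cells in the Isl1 signal was not tested.

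Lhx1 had 2 probe sets at the edge of detection, and they disagreed. The probe set 1450428_at read 97.6 on the knockout and 8.23 on the wild-type array, under the floor there, so that it was at least 2.37-fold higher. The probe set 1421951_at read 22.6 on the knockout array, under the floor, and 45.7 on the wild-type array, at least 1.095-fold lower. The direction of Lhx1 therefore depends on the probe set, although both carry the same source accession. Genes of intermediate mesoderm and mesonephros, where Lhx1 acts in kidney formation, had 4 of 7 past 2-fold upwards and 0 downwards. The 4 were Ret (2.32), Sim1 (2.22), Wt1 (2.01) and Gata3 (1.44). Another 2 of the 7 were detected on the knockout array alone. Osr1, an early gene of intermediate mesoderm, read 194.1 on the knockout and 259.1 on the wild-type array, a ratio of -0.42. Cdh16, a marker of renal epithelium, was under the floor on both arrays, and Pax8 read 45.5 on the knockout and 40.8 on the wild-type array, close to the floor on both. The summed signal of that list was 1507 on the knockout and 630 on the wild-type array. Among spinal interneuron and progenitor genes, 4 of 8 passed 2-fold upwards and 0 downwards. Sox2 stood at 2.71 and Zic1 at 1.60, both widely expressed by neural progenitors. Pax6, at least 3.55-fold higher, and Olig3, at least 2.21-fold higher, were the others past 2-fold. Of the 8 genes, 4 were detected on the knockout array alone, Pax6 and Olig3 among them, so the ratios of those 4 could only be positive. The interneuron gene Evx1 read 85.0 on the knockout and 116.1 on the wild-type array, a ratio of -0.45, Foxd3 was detected on the wild-type array alone, at 42.0, and Barhl1 and Barhl2 were detected on neither. That list had a summed signal of 2747 on the knockout and 826 on the wild-type array. The part of either tissue in the Lhx1 signal was not tested.

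**Figure D3:**
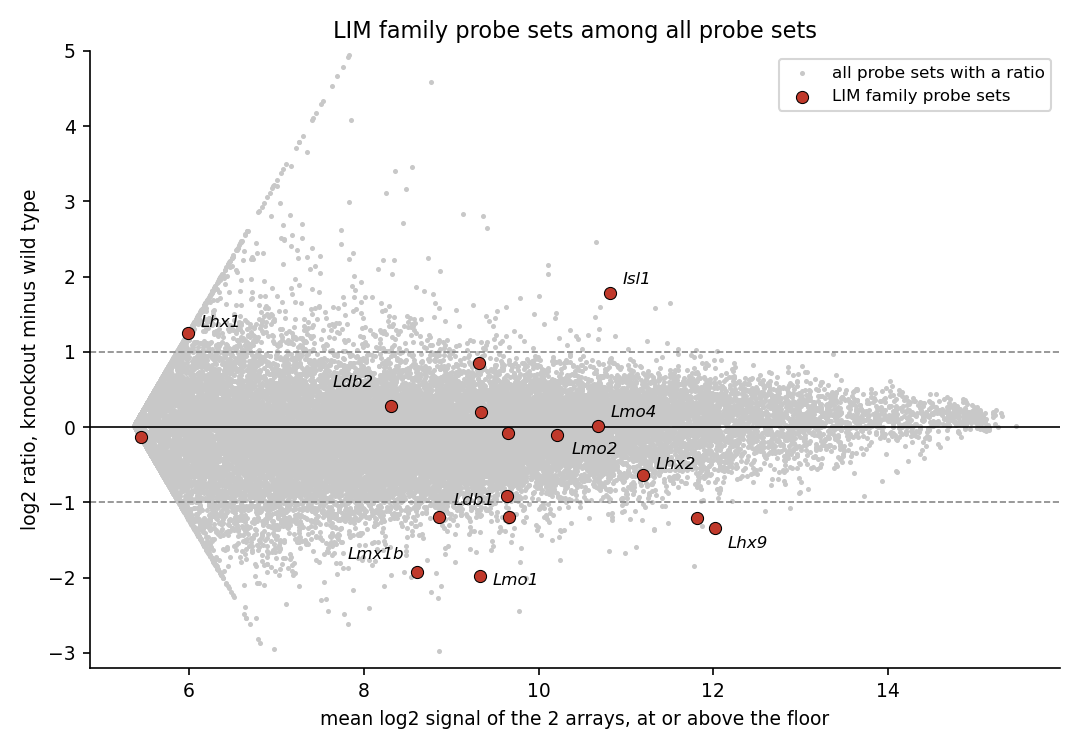
Log2 ratio, knockout minus wild type, against the mean log2 signal of the 2 arrays for all 29142 probe sets with a ratio (grey) and the 17 LIM probe sets among them (red, each gene labelled at 1 of its points); dashed lines mark 2-fold and 10 grey points lie outside the plotted range. Lmo1, Lmx1b, Isl1 and the brighter pair of Lhx9 points sit at the edge of the cloud for their signal, whereas the lone Lhx1 point past 2-fold lies on the line set by the wild-type floor.

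Among the LIM-only genes, Lmo1 had a far lower ratio than its relatives. Its single probe set, 1418478_at, read 322.9 on the knockout and 1279 on the wild-type array, a log2 ratio of -1.99, or 3.96-fold lower, the lowest of the 17 LIM ratios. Of all probe sets with a ratio, 41 had a lower one. Lmo2, a bridging factor of blood and endothelial complexes, read 1146 on the knockout and 1234 on the wild-type array, a ratio of -0.11. Lmo4, which limb bud mesenchyme and epithelia also express, read 1650 on the knockout and 1628 on the wild-type array, a ratio of 0.02. Both are within the measurement error, and the Lmo2 and Lmo4 ratios lay 1.88 and 2.01 above that of Lmo1. Each of the LIM-only genes was read by 1 probe set, so no other probe set could be set beside these values.

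The blood and vessel genes that Lmo2 acts with were read beside it. The endothelial list had a median of -0.34, with 2 of 12 genes past 2-fold downwards and 0 upwards. Tie1 was lower by at least 2.69-fold and the VEGF receptor gene Kdr was at -1.09. The erythroid list had a median of 0.08, with 1 of 11 genes past 2-fold upwards, the globin regulator gene Klf1 at 1.02, and 0 downwards. Tal1 and Gata1, which bind DNA in the complex that Lmo2 bridges, were at 0.04 and 0.08, and Lyl1 was at -0.05. The summed signals were 6477 on the knockout and 7739 on the wild-type array for endothelium, and 91783 on the knockout and 86277 on the wild-type array for erythroid genes. The part of these cells in the Lmo2 reading was not tested.

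The 2 Ldb cofactors differed from each other. Ldb1, a cofactor of LIM homeodomain proteins in the limb bud, read 581 on the knockout and 1101 on the wild-type array by its single probe set, a log2 ratio of -0.92, or 1.89-fold lower, just inside 2-fold. Ldb2 had 3 probe sets with ratios near zero. They read 784 on the knockout and 830 on the wild-type array for 1439557_s_at, 698 on the knockout and 608 on the wild-type array for 1421101_a_at, and 348 on the knockout and 288 on the wild-type array for 1456786_at. The Ldb2 ratios were -0.08, 0.20 and 0.28, with mixed signs and all within 1 SD of measurement error of zero. The Ldb2 ratio of the brightest probe set lay 0.84 above that of Ldb1, beside 0.396 for 1 SD of measurement error in a difference.

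Partners of the LIM complex were all within 2-fold by their brightest probe sets, 0 of 8 past it in either direction, with a median ratio of -0.11. Ssbp3, a single-stranded DNA-binding protein that stabilises Ldb proteins, read 2741 on the knockout and 4765 on the wild-type array, a ratio of -0.80, and its other probe set gave -0.91. Ssbp2, of the same family, ran the other way at 0.55 by its brightest probe set, with its 3 others between -0.12 and 0.40, and Ssbp4 was at -0.32. Rlim, a ubiquitin ligase that marks Ldb proteins for breakdown, had a brightest probe set at 0.17 and 4 others between -0.62 and 0.45, the highest a bound, and Deaf1, an Lmo4-binding factor, at 0.27. The E protein genes Tcf3, Tcf4 and Tcf12, whose products pair with tissue-restricted basic helix-loop-helix factors, were at -0.64, -0.28 and 0.06 by their brightest probe sets. All 3 Tcf3 probe sets were negative, between -1.14 and -0.64. The 6 Tcf4 probe sets ranged from -0.98 to 0.18, the 0.18 from a dim one, and the 5 Tcf12 probe sets from -0.54 to 0.24.

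Other LIM homeobox and LIM-only genes were little detected. Of 8 such genes, 5 were under the floor on both arrays, namely Lhx4, Lhx5, Lhx6, Lhx8 and Lmo3. Isl2, which motor neurons share with Isl1, read 145 on the knockout and 68.1 on the wild-type array, 2.13-fold higher. Lhx3, a motor neuron and pituitary factor, read 62.3 on the knockout array and 6.78 on the wild-type array, under the floor there, at least 1.51-fold higher, while its other probe set was under the floor on both. Lmx1a, the roof plate relative of Lmx1b, read 5.98 on the knockout array, under the floor, and 42.9 on the wild-type array, barely above it.

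**Figure D4:**
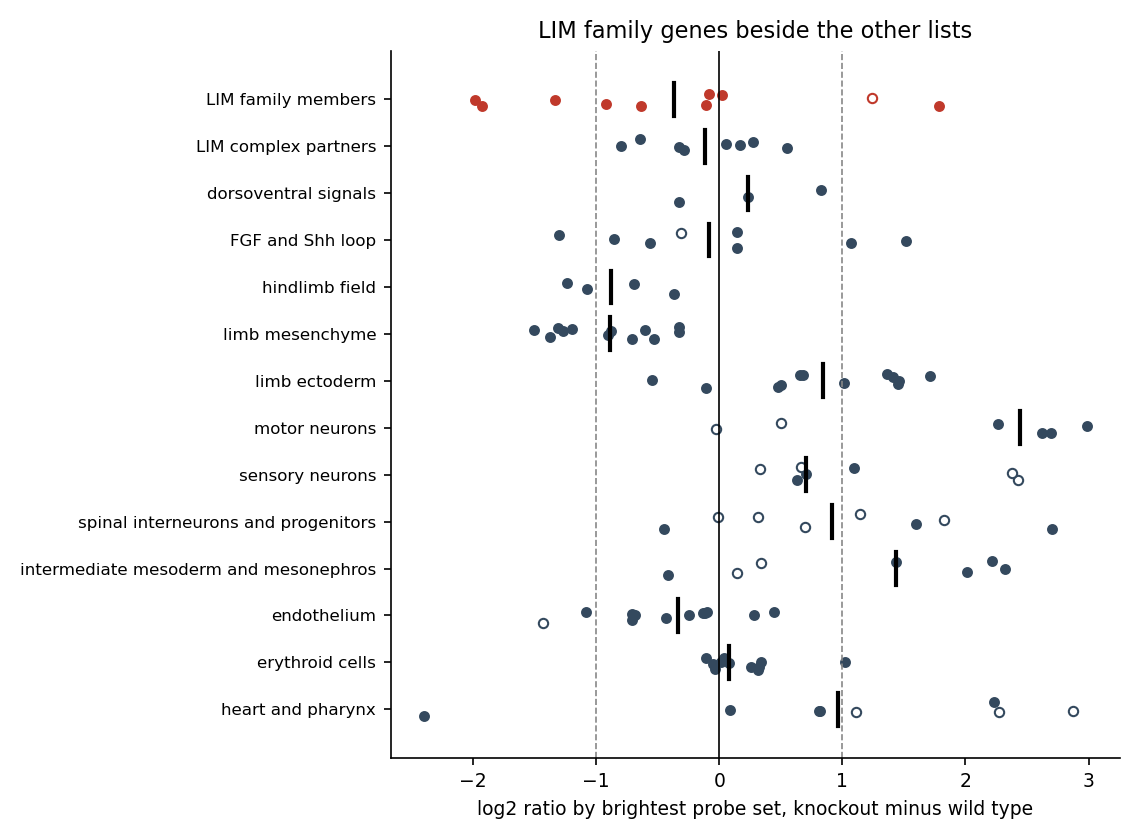
Log2 ratio, knockout minus wild type, by brightest probe set for the 10 LIM genes (red) and the genes of 13 further lists (blue); open symbols are bounds with 1 array under the floor, black bars are medians and dashed lines mark 2-fold. The LIM genes spread from -1.99 to 1.79, whereas the 12 limb mesenchyme genes are all below zero and the neuronal medians are above it.

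Ordered by the brightest probe set of each gene, the log2 ratios were lowest for Lmo1, then Lmx1b, Lhx9, Ldb1, Lhx2, Lmo2, Ldb2, Lmo4, Lhx1 and Isl1. Lmo1 and Lmx1b were 0.06 apart, Ldb1 and Lhx2 0.29, Lmo2 and Ldb2 0.02, and Ldb2 and Lmo4 0.10, all less than 1 SD of a difference in measurement error. Larger steps lay between Lmx1b and Lhx9, at 0.59, between Lhx9 and Ldb1, at 0.41, which barely exceeds that SD, and between Lhx2 and Lmo2, at 0.53. The largest step, from Lmo4 to Lhx1, was at least 1.22, because the Lhx1 ratio is a bound. Isl1 lay 0.54 above that bound, so the order of Lhx1 and Isl1 is not settled. The place of Lhx1 rests on a probe set detected on the knockout array alone. By the other Lhx1 probe set, with a ratio of at most -0.13, that largest step would not be there. With 2 arrays no measure of likeness between genes could be computed, so none is named for sharing a pattern with them.

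**Figure D5:**
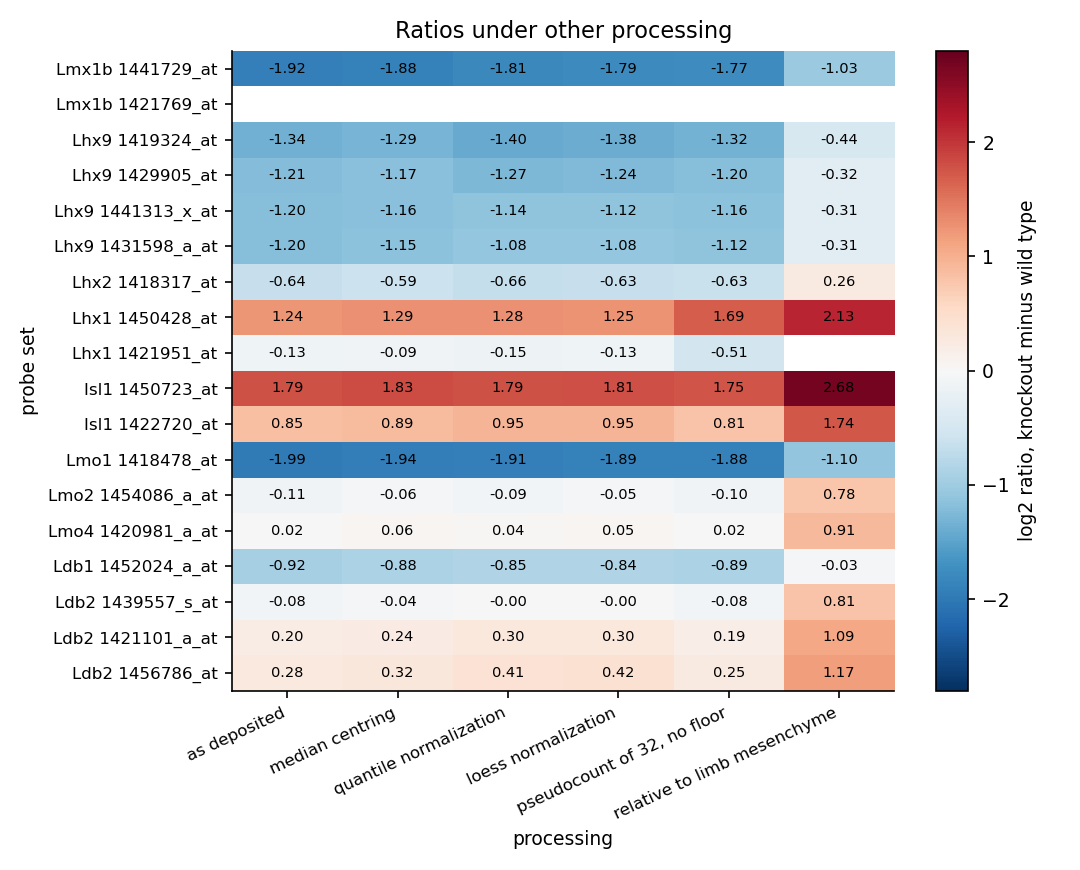
Log2 ratio, knockout minus wild type, of each LIM probe set (rows) under 6 ways of processing (columns); red is higher and blue lower on the knockout array, and empty cells have no ratio. The scaling columns differ little. The last column, which subtracts the mesenchyme median of -0.89, leaves only the Lmo1 and Lmx1b probe sets past 2-fold lower. That column puts 5 LIM probe sets past 2-fold higher.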

How the data were processed

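The deposited values are MAS 5.0 signal intensities on a linear scale, 1 per probe set, made by the authors per the series' design text. Per the labels' protocols, RNA was extracted with ISOGEN and 200 ng was labelled with a 3′ IVT kit. No genome build enters these values. Gene names came from the platform annotation, matched by Entrez identifier to RefSeq genes of GRCm38.p6. The 64 control probe sets were left out. Signals under the 40th percentile of each array were raised to it before log2 ratios were taken, and a bound of under 1-fold gave no ratio. With 1 array per group, no p-value was computed. A threshold of 2-fold was used to count. Genes outside the LIM set were read by their brightest single-symbol probe set, and listed genes without one were left out. All LIM probe sets are named; of the long marker lists, up to 4 genes with the largest ratios were to be named, and defining markers and others beyond these were named after their values were seen. The members and lists were chosen with earlier results of these data known. The steps were tested on simulated data. Alternatives covered scaling, floor, pseudocount, choice of probe set and fold. Python 3.11.15, numpy 2.4.6, pandas 2.3.3, matplotlib 3.10.9, R 4.3.3 and limma 3.58.1 were used.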

Additional observations from a re-analysis of the deposited data

How the results depend on the processing

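The counts of LIM probe sets past 2-fold, 6 lower and 2 higher, were the same after median centring, quantile and loess normalization and with a pseudocount of 32. The lower count was 7 without a floor or at the 20th percentile, 4 with unique probe sets only and 3 with 1 probe set per gene, where Lhx9 counts once. At a floor of the 60th percentile the higher count was 1, with Lhx1 under it. The median ratio, -0.13, became -0.59 without a floor or at the 20th percentile and -0.64 at the 60th, because dim Lhx1 and Lmx1b probe sets enter, move or drop out. It was -0.39 with the pseudocount, -0.38 with unique probe sets only and -0.37 with 1 probe set per gene. Relative to the limb mesenchyme median, a scale added once the data had been seen, 2 probe sets were lower and 5 higher, with a median of 0.52. At 1.5-fold, 8 were lower and 3 higher. No ratio past 2-fold changed sign under any of these settings, although the Lhx1 one is lost at the 60th percentile. No paired analysis was possible because each genotype has 1 array. The number of arrays and, for Lhx1 and the dimmer Lmx1b probe set, signal near background limit the precision.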
